A study of Mus musculus with 3 samples.

Results

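The 6 actin genes of the mouse, Acta2, Actg2, Actc1, Acta1, Actb and Actg1, were followed through 3 sorted cell populations of the aorta-gonad-mesonephros region (AGM), the embryonic tissue around the dorsal aorta. They were taken by symbol from the 47069 rows of the deposited expression table, and all 6 were present on 1 row each. The cells of all 3 populations came from C57BL/6J embryos at embryonic day 11, titled WT (wild type), and were sorted by flow cytometry after cells with CD31, CD45 or cKit had been gated out. DP cells carried NG2 and PDGFRβ and are labelled vascular smooth muscle cells (vSMCs). PDGFRβ-S cells, positive for PDGFRβ only, are labelled sub-vSMCs, and DN cells, labelled stroma, carried neither by the labels and are called PDGFRβ low or negative in the text of the study. Each population gave 1 library, so no p-value can be given and every difference describes these libraries. Intervals are 95% and cover counting error only.

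Actin is the protein of the thin filaments that myosin pulls on and of the cytoskeleton of every cell. Mammals carry a pair of cytoplasmic actins found in nearly all cells, Actb (β-actin) and Actg1 (γ-actin), and 4 muscle actins. Of these, Acta2 encodes the α-actin of vascular smooth muscle, Actg2 the γ-actin best known from visceral smooth muscle, Actc1 the α-actin of heart and Acta1 that of skeletal muscle. Embryonic muscle is known to use more than 1 of them, and Actc1 is also made in developing skeletal muscle.

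The libraries held about 12123000 reads on genes in DP, against 10754000 in PDGFRβ-S cells and 13033000 in DN cells. Of the TPM (reads per gene length, scaled to the same total in each library), mitochondrial genes made up 10.5% in DP, against 25.5% in PDGFRβ-S cells and 24.4% in DN cells, and nuclear protein-coding genes took 56.5%, 43.4% and 46.3% in the same order. A set of 7 markers of vascular smooth muscle, among them Myh11, Cnn1 and Tagln, summed to 1302 TPM in DP, against 57.2 in PDGFRβ-S cells and 23.6 in DN cells. Endothelial markers summed to between 2.14 and 5.77 TPM. Blood markers, chiefly globin RNA, summed to 524 TPM in DP, against 4407 in PDGFRβ-S cells and 4428 in DN cells, and all 4 sympathetic neuron markers were listed at 0 in DP and PDGFRβ-S and summed to 175 TPM in DN. The part of these other cells in the differences between the libraries was not tested.

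The 6 coding sequences were compared first, since short reads from near-identical genes can be exchanged. Coding sequences were taken from GENCODE release M21 and had between 1128 and 1134 bases. Between any pair, 81.6% to 88.7% of bases and 93.3% to 98.9% of the encoded residues were identical. Acta2 and Actg2, the smooth muscle actins, differed at 5 of 376 residues but at 183 of 1131 bases. Actb and Actg1 differed at 4 of 375 residues and 128 of 1128 bases. The longest run of bases common to Acta2 and Actg2 was 29, which is shorter than the 43-base reads. It lies in the following stretch of 59 coding bases, shown for all 6 genes because it is where those smooth muscle actins are most alike. Capitals mark bases that differ from Acta2.
Acta2: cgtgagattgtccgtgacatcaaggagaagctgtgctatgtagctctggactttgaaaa
Actg2: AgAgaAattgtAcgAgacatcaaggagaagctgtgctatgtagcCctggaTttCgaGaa
Actc1: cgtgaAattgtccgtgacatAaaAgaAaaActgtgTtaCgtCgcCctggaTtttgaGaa
Acta1: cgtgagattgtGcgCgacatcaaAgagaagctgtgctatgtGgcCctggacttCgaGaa
Actb: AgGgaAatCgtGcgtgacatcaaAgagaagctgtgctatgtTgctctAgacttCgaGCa
Actg1: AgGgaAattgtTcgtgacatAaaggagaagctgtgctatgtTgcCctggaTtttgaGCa
Outside the common run, Actg2 differed from Acta2 at 9 of these bases, so a full read placed there carried at least 1 difference.

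The pair with the longest common run was Acta1 and Actb, a skeletal and a cytoplasmic actin, with 77 bases. This run is longer than a read, so reads that fall within it cannot tell these genes apart. The longest common run was 59 bases for Acta1 and Actg1, 62 for Actb and Actg1, and 29 for Acta1 and Actc1, the muscle actin most like Acta1 in protein.

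Every 43-base sequence of the longest coding transcript of each gene was then looked up in all other annotated mouse transcripts. Actg2 and Actc1 shared none of theirs with any other gene, so their reads were distinct at full identity. Acta2 shared 14 of its 1993 positions (0.702%), and Acta1 shared 38 of 1404 (2.71%), with Actb taking 35 of them. Actb shared 4.05% with other actins and 20.98% with any gene, and Actg1 shared 3.51% and 56.9%. Most of what Actg1 shared was with processed pseudogenes, chiefly Gm12715 (52.0% of its positions), Gm8399 and Actg-ps1. These loci held few reads, and Gm12715 had 9 in DP, against 0 in PDGFRβ-S cells and 2 in DN cells. Whether reads common to Actg1 and its copies were all given to Actg1 or dropped cannot be told apart from the table.

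**Figure D1:**
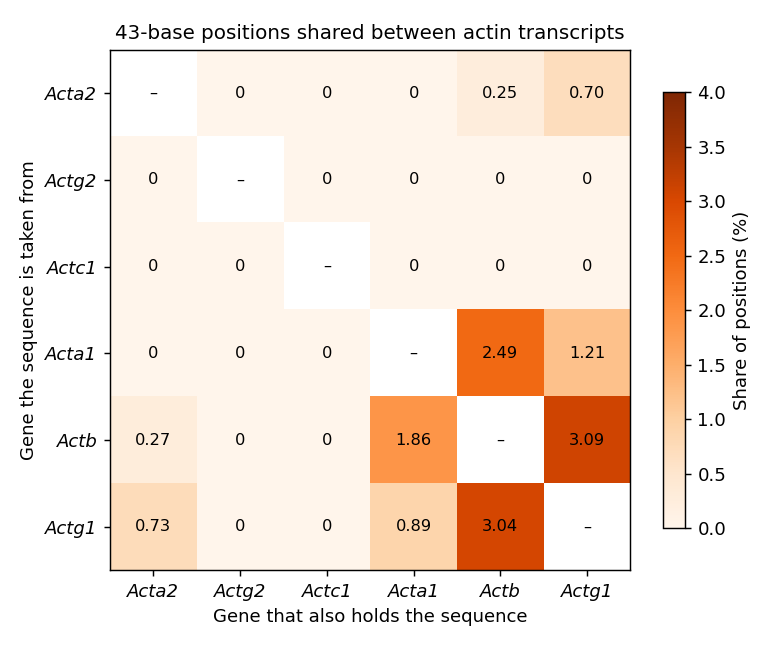
Share of the 43-base positions of each actin transcript (rows) that also occur in another actin gene (columns), in percent. Actg2 and Actc1 have 0 in every cell, and the highest shares join Actb with Actg1 (3.09% and 3.04%) and Acta1 with Actb (2.49%).

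The reads behind each TPM value could be recovered, and this also showed which gene length had been divided out. For Actb the divisor was 5902 bases, 3.07 times its longest coding transcript of 1920 bases, and for Actg1 it was 6229, 3.19 times 1952 bases. For Actg2 it was 1.98 times the transcript, and for Actc1, Acta1 and Acta2 it was 1.10, 0.991 and 0.875 times. The divisor matched, for most genes of the table, the summed length of all annotated exons with overlapping exons counted repeatedly. Deposited TPM therefore put the cytoplasmic actins low relative to the muscle actins within a library. The ratio of 1 gene between libraries does not depend on the divisor.

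Both smooth muscle actins were far higher in DP than in either other population. Acta2 (chromosome 19, 34241090 to 34255336 on mm10, minus strand) stood at 6256 TPM in DP (6197 to 6316), against 148 in PDGFRβ-S cells (140 to 157) and 84.1 in DN cells (78.2 to 90.4). It ranked 20 among all genes in DP, against 655 in PDGFRβ-S cells and 1275 in DN cells. Its level in DP was 74.4-fold that in DN (69.1 to 80.1) and 42.2-fold that in PDGFRβ-S (39.9 to 44.8). PDGFRβ-S exceeded DN by 1.76-fold (1.61 to 1.93), an interval that lies above 1. If coverage was even and only identical reads were exchanged, other actins could have given 1.18% of the Acta2 reads in DP. The same estimate was 14.0% in PDGFRβ-S cells and 30.1% in DN cells.

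Actg2 (chromosome 6, 83512905 to 83536265) stood at 941 TPM in DP (922 to 960), against 3.87 in PDGFRβ-S cells (2.84 to 5.15) and 3.39 in DN cells (2.46 to 4.55). It thus had the widest range of the family, resting on 9591 reads in DP, against 47 in PDGFRβ-S cells and 44 in DN cells. DP was 278-fold above DN (207 to 382) and 243-fold above PDGFRβ-S (183 to 331). The PDGFRβ-S and DN levels differed by 1.14-fold, with an interval of 0.740 to 1.76 that includes 1. The smooth muscle actins were not in a fixed proportion, and Acta2 exceeded Actg2 by 2.94-fold in DP, against 16.9-fold in PDGFRβ-S cells and 10.99-fold in DN cells when both were taken per kilobase of transcript. In sorted bulk libraries, fewer cells that express a gene and less RNA per cell cannot be told apart.

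**Figure D2:**
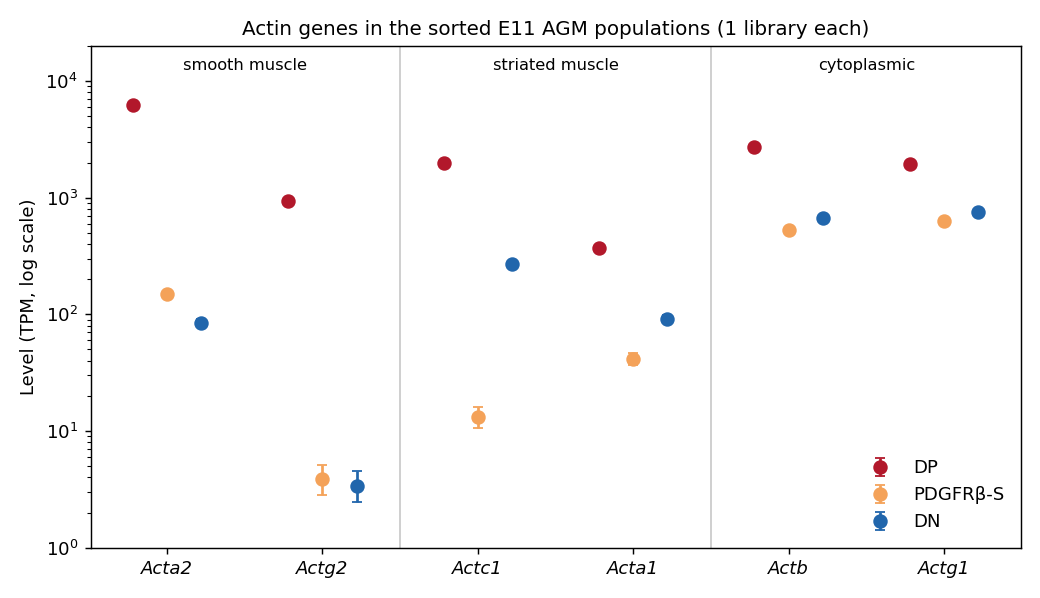
Level of each actin gene in TPM (log axis) in DP, PDGFRβ-S and DN, 1 library each, with exact Poisson 95% intervals from recovered reads. DP is highest for all 6 genes, and Actc1 is the member in which PDGFRβ-S (13.1 TPM) lies furthest below DN (268 TPM).

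The striated muscle actins were also highest in DP, and they were lowest in PDGFRβ-S. Actc1 (chromosome 2, 114047282 to 114053548) stood at 1988 TPM in DP (1953 to 2023), against 13.1 in PDGFRβ-S cells (10.7 to 16.0) and 268 in DN cells (257 to 280). DP was 7.41-fold above DN (7.07 to 7.76) and 151-fold above PDGFRβ-S (124 to 187). PDGFRβ-S was 20.4-fold below DN (16.7 to 25.3). Actc1, the cardiac actin, ranked 53 in DP and 350 in DN, against 5075 in PDGFRβ-S. None of these reads could have come from another actin gene at full identity.

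Markers of striated muscle cells were set beside Actc1. The 10 skeletal muscle markers summed to 17.2 TPM in DP, against 9.84 in PDGFRβ-S cells and 173 in DN cells. Of these, 3 were listed at 0 in DP, 4 in PDGFRβ-S and none in DN. Myog, which drives the differentiation of myoblasts, was listed at 0 in DP and in PDGFRβ-S and stood at 38.0 TPM in DN, and Mylpf, a light chain of fast skeletal myosin, stood at 5.73, 3.33 and 63.7 TPM across DP, PDGFRβ-S and DN. Between PDGFRβ-S and DN, Actc1 thus moved the same way as the skeletal markers, and their part in that difference was not tested. Between DP and DN it moved the other way, being higher in DP where their sum was lower. Among those markers Tnnt3 alone was higher in DP than in DN, at 3.77 against 1.92 TPM. The 8 cardiac markers summed to 21.5 TPM in DP, against 18.4 in PDGFRβ-S cells and 31.2 in DN cells. Tbx20, a T-box factor of the heart, had 7.36 TPM in DP, against 3.94 in PDGFRβ-S cells and 3.72 in DN cells, while Myl7, an atrial myosin light chain, had 10.5, 12.9 and 16.5 TPM in the same order. Nppa was listed at 0 in all 3 libraries, and the cardiac factor Nkx2-5 was listed at 0 in DP and PDGFRβ-S and stood at 0.266 TPM in DN.

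Acta1 (chromosome 8, 123891767 to 123894736) stood at 372 TPM in DP (356 to 389), against 41.6 in PDGFRβ-S cells (36.8 to 46.8) and 90.8 in DN cells (83.9 to 98.1). DP was 4.10-fold above DN (3.75 to 4.49) and 8.94-fold above PDGFRβ-S (7.88 to 10.2), and PDGFRβ-S was 2.18-fold below DN (1.89 to 2.52). Acta1, the skeletal muscle actin, was the member whose reads are most open to exchange. It shares a stretch with Actb and a shorter one with Actg1. At even coverage and full identity, these cytoplasmic actins could have given 1576 of its 2064 reads in DP and 571 of 641 in DN. In PDGFRβ-S this estimate exceeded all 275 reads. With these estimates taken off, the log2 ratio of Acta1 was 3.03 in DP against DN, where it was 2.02 as deposited. How many reads were exchanged was not measured, so the levels of Acta1 in PDGFRβ-S and DN are uncertain.

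By recovered reads, Actc1 exceeded Acta1 in DP and DN but not in PDGFRβ-S. Per kilobase of transcript, Actc1 was 5.92-fold above Acta1 in DP (5.65 to 6.20) and 3.28-fold in DN (3.00 to 3.58). It was 0.350 times Acta1 in PDGFRβ-S (0.275 to 0.442), where the reads of Acta1 are uncertain. With reads that other actins could have given taken off, Actc1 held 1.04% of the family TPM in PDGFRβ-S and Acta1 0%. The order of the pair in PDGFRβ-S thus depends on how shared reads were treated. The annotation places Acta1 within Gm20388 and Actc1 within A530058N18Rik, both on the opposite strand. Neither shares exonic bases with the actin gene, and neither passed 0.143 TPM in any library.

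The cytoplasmic actins varied least. Actb (chromosome 5, 142903115 to 142906754) stood at 2718 TPM in DP (2697 to 2740), against 527 in PDGFRβ-S cells (518 to 536) and 675 in DN cells (665 to 684). Actg1 (chromosome 11, 120345690 to 120348542) stood at 1956 TPM in DP (1938 to 1973), against 626 in PDGFRβ-S cells (617 to 636) and 754 in DN cells (744 to 764). Both genes, often used as references of constant expression, were thus lowest in PDGFRβ-S and highest in DP. Actb was 4.03-fold higher in DP than in DN (3.97 to 4.09) and Actg1 2.59-fold (2.55 to 2.63). Against PDGFRβ-S the values in DP were 5.16-fold (5.07 to 5.25) and 3.12-fold (3.07 to 3.18). PDGFRβ-S lay at 0.781 times DN for Actb and 0.831 times DN for Actg1. As log2 ratios these were -0.36 and -0.27, near the median of -0.27 over all genes tested in that comparison.

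The balance of the cytoplasmic pair differed as well. Per kilobase of transcript Actb was 1.34 times Actg1 in DP (1.32 to 1.36), 0.810 times in PDGFRβ-S (0.793 to 0.828) and 0.862 times in DN (0.846 to 0.878). If reads at positions common to other genes had been dropped, the lengths that count would be shorter, above all for Actg1. Per kilobase of positions found in no other gene, DP had 41828 reads for Actb and 57197 for Actg1, so the order of the pair in DP depends on how such reads were treated.

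Across the family, genes were called higher or lower where log2((TPM + 1)/(TPM + 1)) reached 4-fold and the higher library held 10 TPM or more. In DP against DN, 5 of 6 members were higher, all except Actg1, where 4.98% of the 8268 genes tested were higher and 4.0% lower. Acta1 and Actb lay just past the limit, at log2 ratios of 2.02 and 2.01. Both fell under it when TPM were rescaled to nuclear protein-coding genes (1.74 and 1.72), so the count of members that were higher was then 3. In DP against PDGFRβ-S, 5 of 6 were again higher, against a background of 10.1% higher and 2.69% lower, and 4 after that rescaling. The share of all genes called after that rescaling was not computed. In PDGFRβ-S against DN, 1 of the 5 members tested was lower (Actc1) and none was higher, against a background of 1.65% lower and 0.312% higher. The median log2 ratio of the 6 genes was 2.45 in DP against DN and 4.26 in DP against PDGFRβ-S, beside 0.07 and 0.40 over all genes tested. In PDGFRβ-S against DN it was -0.31 over the 6 genes, counting Actg2, which was under the filter there, beside -0.27 over all genes tested. Any 2 of these comparisons share a library.

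**Figure D3:**
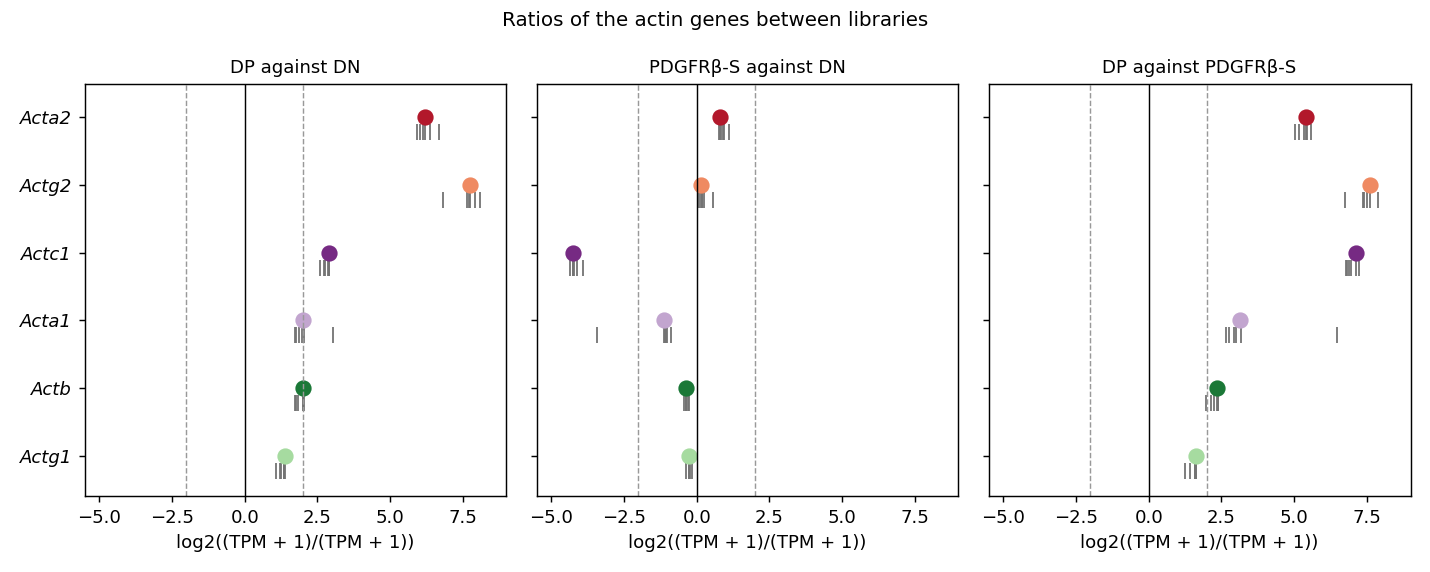
Log2 ratios of the 6 actin genes in each comparison (circles), with the values under the alternative settings as ticks below them and the 4-fold limits dashed. Acta2, Actg2 and Actc1 lie past the limit in both comparisons with DP under all settings, while Acta1 and Actb in DP against DN lie at it.

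Together the 6 genes held 1.42% of all TPM in DP, against 0.136% in PDGFRβ-S cells and 0.188% in DN cells. By deposited TPM the 4 muscle actins made up 67.2% of this in DP, against 15.2% in PDGFRβ-S cells and 23.8% in DN cells. Acta2 alone made up 44.0% in DP, and Actc1 made up 14.0% in DP and 14.3% in DN. By recovered reads the muscle share was 38.1% in DP (exact binomial interval 37.9% to 38.3%), against 4.82% in PDGFRβ-S cells (4.59% to 5.05%) and 7.69% in DN cells (7.45% to 7.94%). Per kilobase of transcript it was 40.4%, 5.06% and 9.41% in DP, PDGFRβ-S and DN. The muscle share was thus highest in DP and lowest in PDGFRβ-S under all of these measures, while its size depended on the length rule.

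The leading gene in DP also depended on it. By deposited TPM Acta2 was 2.30 times Actb in DP, and per kilobase of transcript it was 0.655 times Actb (0.647 to 0.663). On that second scale the order in DP was Actb (34.1% of the family), Actg1 (25.5%), Acta2 (22.4%), Actc1 (8.92%), Actg2 (7.60%) and Acta1 (1.51%). In PDGFRβ-S Actg1 and Actb held 52.4% and 42.5% on it, and in DN 48.7% and 41.9%.

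**Figure D4:**
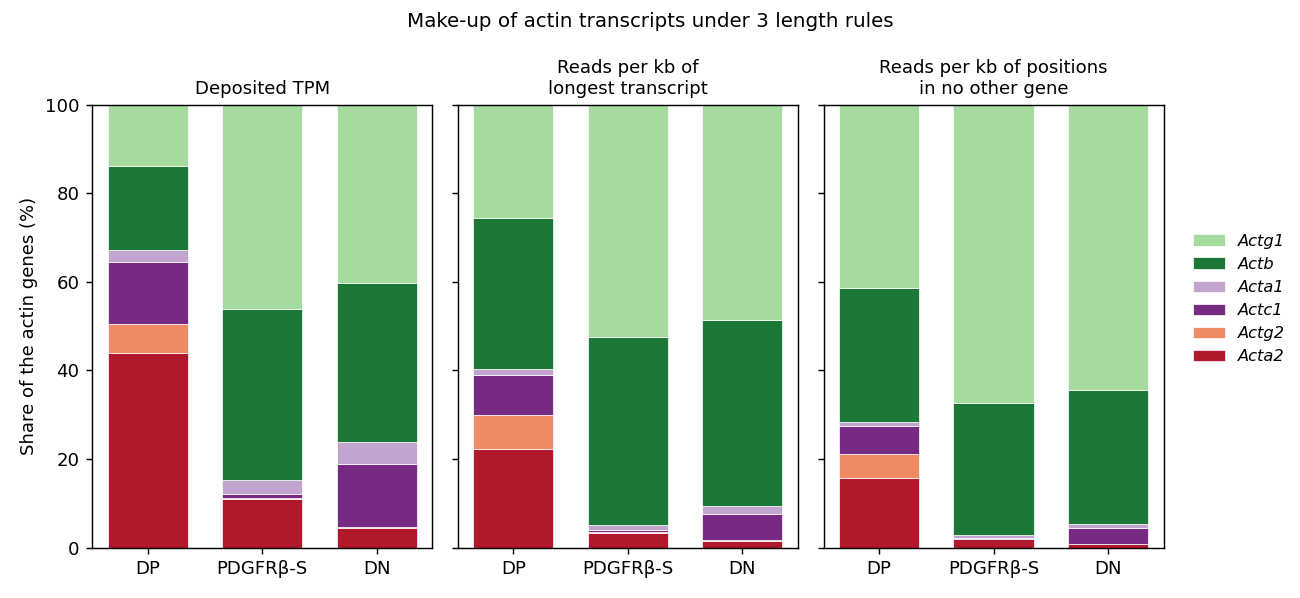
Share of each actin gene in the summed family (percent, stacked to 100) in DP, PDGFRβ-S and DN under deposited TPM and under reads per kilobase of the longest transcript or of positions found in no other gene. The muscle actins (red and purple) take 67.2%, 40.4% and 28.5% in DP.

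Actin genes of muscle are classic targets of SRF, a transcription factor that binds the CArG box, in which CC and GG enclose a core of A and T bases. RefSeq promoter windows (GRCm38.p6) were at hand for 4 of the 6 genes and were searched on both strands in the 250 bases before the start. A CArG box was found in Acta1, Actc1 and Actg1, and 1.47% of the 32851 windows searched held one. Acta2 held a pair of matches with 1 core base other than A or T, and 7.24% of windows held at least 1 such match. Acta1 held 2 such looser matches and Actc1 3. The CArG boxes and the pair from Acta2 are shown, since Acta2 led the muscle actins in DP, with the element in capitals, 5′ to 3′ on the minus strand.
Acta1 (chr8:123894829-123894858): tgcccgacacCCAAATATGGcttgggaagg
Actc1 (chr2:114052903-114052932): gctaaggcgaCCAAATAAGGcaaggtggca
Actg1 (chr11:120348566-120348595): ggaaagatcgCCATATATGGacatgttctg
Acta2 (chr19:34255438-34255467): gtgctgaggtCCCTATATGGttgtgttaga
Acta2 (chr19:34255388-34255417): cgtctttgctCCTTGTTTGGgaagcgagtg
The first base of the element lay 73, 47, 90, 84 and 34 bases before the RefSeq start in these lines. That start is not always the end of the gene as annotated elsewhere. The Actc1 box lies inside the gene coordinates given above, which reach 114053548. Both Acta2 elements lie inside the GENCODE M21 gene, which reaches 34255590. A match is a description of the letters and says nothing of binding, and the box occurred both in Actc1, which ranged from 13.1 to 1988 TPM, and in Actg1, which ranged from 626 to 1956.

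Srf itself stood at 2.65 TPM in DP, against 3.34 in PDGFRβ-S cells and 4.02 in DN cells. Of 16 genes for SRF, its cofactors and partners, 7 passed the filter in DP against DN, and 2 were higher and none lower, beside 4.98% higher and 4.0% lower over all genes tested. In DP against PDGFRβ-S, 3 of 6 were higher and none lower, beside 10.1% and 2.69%. Myocd, the cofactor of SRF in smooth and cardiac muscle, stood at 14.4 TPM in DP, against 1.60 in PDGFRβ-S cells and 1.93 in DN cells. Mkl2, another SRF cofactor, stood at 14.9, 22.5 and 27.4 TPM across DP, PDGFRβ-S and DN.

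Most partners of actin in the contractile apparatus of smooth muscle were higher in DP than in DN. Of 20 such genes, 18 passed the filter in that comparison, and 14 of them were higher and none lower, beside 4.98% higher and 4.0% lower over all genes tested. Their median log2 ratio was 2.58. In DP against PDGFRβ-S, 12 of 18 were higher and none lower, beside 10.1% and 2.69%. Cnn1 (calponin, an actin-binding protein of smooth muscle) stood at 249 TPM in DP, against 4.76 in PDGFRβ-S cells and 0.257 in DN cells. Tagln (transgelin) stood at 952 TPM in DP, against 47.3 in PDGFRβ-S cells and 14.1 in DN cells. Cald1 (caldesmon) and Flna (filamin A), the lowest of the list among genes that reached 5 TPM, were at log2 ratios of 1.03 and 1.72. Synpo2, under that level, was at -0.44. In PDGFRβ-S against DN, 0 of the 11 tested passed the limit in either direction, near the background of 0.312% higher and 1.65% lower.

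Among the partners of actin in the sarcomere, none was called higher in DP than in DN, though most were under the filter. Of 27 sarcomere genes, 7 passed the filter in DP against DN, and 4 of these were lower, beside 4.98% higher and 4.0% lower over all genes tested. Their median log2 ratio was -2.98. In PDGFRβ-S against DN, 5 of 7 were lower and none higher, beside 1.65% lower and 0.312% higher. In DP against PDGFRβ-S only 2 passed the filter, of which Tnni1 was higher, at a log2 ratio of 2.04, and Myl7 was at -0.27. Tnnc2 (fast troponin C) had 0.323 TPM in DP cells, 0 listed in PDGFRβ-S and 34.3 in DN. Tnnc1 (slow and cardiac troponin C) stood at 1.38 TPM in DP, against 0.436 in PDGFRβ-S cells and 31.5 in DN cells. Tnni1 (slow troponin I) was at 37.3, 8.35 and 39.6 TPM across DP, PDGFRβ-S and DN, and DP and DN were close for this gene. The sarcomere list shares members with the skeletal and cardiac marker lists.

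Fewer of the other genes of the actin cycle passed the limit. Of 21 genes that bind monomers or turn filaments over, 4 were higher in DP than in DN and none lower, beside 4.98% and 4.0% over all genes tested, and 6 were higher in DP than in PDGFRβ-S and none lower, beside 10.1% and 2.69%. Gsn (gelsolin, which severs and caps filaments) stood at 65.3 TPM in DP, against 2.66 in PDGFRβ-S cells and 3.92 in DN cells, and Coro1b (coronin, which acts on branched filaments) stood at 91.9, 9.45 and 13.0 TPM. Of 15 filament nucleation genes tested, 1 was higher in DP than in DN, which is near the background, and 1 of 14 was higher in DP than in PDGFRβ-S. The gene higher in DP than in DN was Arpc1b of the Arp2/3 complex, at 24.6 TPM in DP, against 4.21 in PDGFRβ-S cells and 3.10 in DN cells. None of the 16 tested genes that fold and process actin passed the limit in any comparison. Among them Cct7 and Cct5, subunits of the chaperonin that folds actin, had the highest log2 ratios in DP against DN (1.14 and 1.11). None of the 8 tested actin-related proteins passed it in DP against DN, with Actr1a at 1.71 and Actr6 at -1.25. In DP against PDGFRβ-S 2 of the 8 were higher, Actr1a at 2.38 and Actr8 at 2.16. None of these lists had a gene past the limit in PDGFRβ-S against DN, where only 0.312% of all genes tested were higher and 1.65% lower.

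Finally, the genes with the most similar pattern were sought among 2405 nuclear protein-coding genes with at least 50 TPM in a library, by the distance between their log2 ratios in DP against DN and PDGFRβ-S against DN. With 3 libraries such a pattern has few dimensions, and the names say nothing of shared control. The nearest to Acta2 were Rhox5, a homeobox gene, Tagln and Anxa1 (annexin A1). The nearest to Actg2 was Ankrd1, a muscle ankyrin repeat protein, which reached 227 TPM in the DP library and was listed at 0 elsewhere, followed by Cnn1 and Rhox5. For Actb they were Akap12, Arhgap1 and Lap3, at distances of 0.021 to 0.081, for Actg1 1810055G02Rik, Ubb and Eif2b5, and for Acta1 Sh3gl1, 4930533O14Rik and Sqstm1.

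Actc1 had no close neighbour. Its nearest genes were Crip2, Cryab and Ckb, at distances of 2.07, 2.18 and 2.58. Cryab, a small heat shock protein of muscle and lens, stood at 130 TPM in DP, against 4.76 in PDGFRβ-S cells and 24.3 in DN cells. Cryab and Actc1 were the 2 genes of the 2405 that passed the 4-fold limit upward in DP against DN and downward in PDGFRβ-S against DN. Counting Actc1 itself, 5 of the 2405 were at least as low as Actc1 in PDGFRβ-S against DN.

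**Figure D5:**
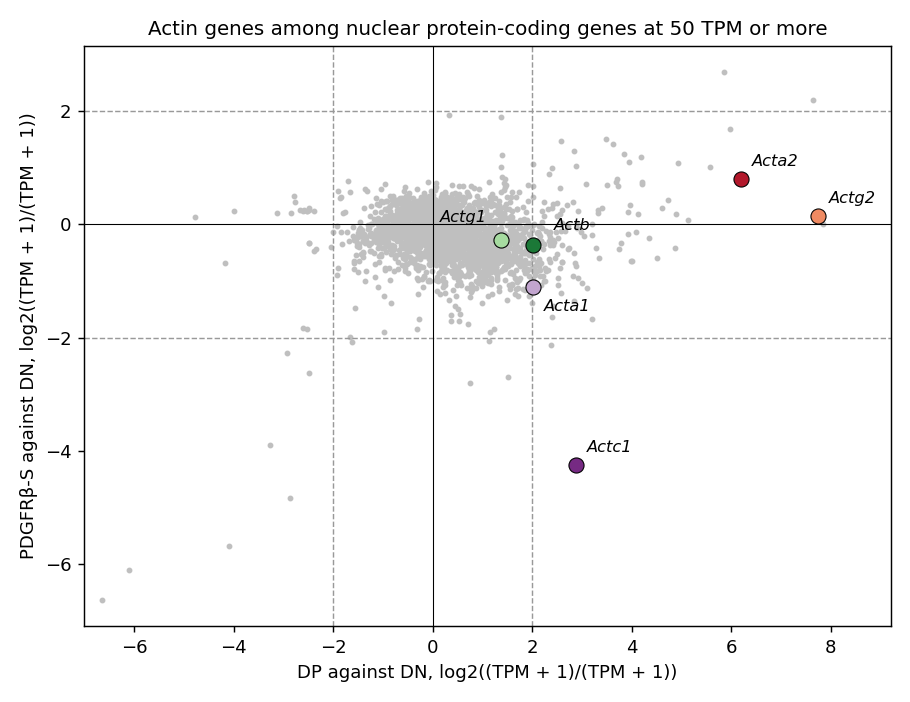
Log2 ratios of DP against DN (horizontal) and PDGFRβ-S against DN (vertical) for 2405 nuclear protein-coding genes at 50 TPM or more (grey), with the 6 actin genes in color and the 4-fold limits dashed. Acta2 and Actg2 lie far to the right near the horizontal axis, Actb and Actg1 lie within the cloud, and Actc1 lies apart at 2.88 and -4.25.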

How the data were processed

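Cells were sorted from E11 AGMs into DP, PDGFRβ-S and DN, and 1 full-length cDNA library per population was sequenced with 43-base single reads, without molecular identifiers or strand information. Whether embryos were pooled, and how many cells were used, was not given for these libraries in any source used. The submitters' notes name TopHat2 2.0.10 as the aligner and mm10 as the genome. The authors deposited TPM for 47069 Ensembl genes, but which route made this table was not stated. The methods of the study name Cufflinks for TPM of RefSeq transcripts and, separately, summarizeOverlaps in union mode over a GENCODE annotation for counts. A second sheet of the deposited file held 4 columns of per-sample values that could not all be assigned, and they were not used.

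Reads were recovered as TPM times a gene length divided by a constant per library. With a length found for each gene, 99.99% of 9397 genes at 50 to 5000 reads per library came out whole, to 0.002 of a read, in the 3 libraries. The summed length of all distinct GENCODE M21 exons gave whole reads for 66.0% of these genes and the merged exon length for 8.18%. With constants shifted by 3%, the summed length did so for 0% of the 8439 of these genes that have overlapping exons. The length found for each gene was not checked in this way. Levels have exact Poisson intervals and ratios exact binomial intervals, which cover counting error only, since PCR copies count as separate reads.

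Rows of a symbol were summed, and ratios were log2((TPM + 1)/(TPM + 1)), called at 4-fold where the higher library held 10 TPM or more. With 1 library per group no test was run. Named genes are the 6 actins, the 3 genes of most similar pattern for each, and for each of 13 lists at most the 2 highest and 2 lowest in DP against DN at 5 TPM or more. Markers and list genes named outside these, and pseudogenes or genes that share sequence with an actin or lie at its locus, were chosen after their values were seen. The members and lists were chosen with earlier results of these data known. A gene of the SRF list and a stretch of coding sequence are not reported here. Recovery and counts of calls were tested on simulated data, in which all TPM were made with the summed exon length. The search for other lengths, which gave the divisors of Acta1 and Acta2, was not tested there. Analyses used Python 3.11.15 with numpy 2.4.6, pandas 2.3.3, scipy 1.17.1, biopython 1.88 and matplotlib 3.10.9.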

Additional observations from a re-analysis of the deposited data

How the results depend on the processing

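Of 108 single ratios of the actin genes under the alternative settings, 57 moved by less than their counting interval, 51 moved further and none changed sign. In DP against DN, 3 members were higher when TPM were rescaled to nuclear protein-coding genes, without the 20 highest genes, or after quantile normalization, and 4 with a pseudocount of 5 TPM. Rescaling to nuclear protein-coding genes shifted the median of all genes by -0.29 in DP against DN and by -0.37 in DP against PDGFRβ-S, where 4 members were then higher. Quantile normalization shifted it by 0.29 in PDGFRβ-S against DN. With a limit of 2-fold, 2 members were lower in PDGFRβ-S against DN, and 6 were higher in each comparison with DP. The share of all genes called was not computed under these settings. The background shares given above do not apply to these counts.

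The muscle share of actin was 38.1%, 4.82% and 7.69% by recovered reads in DP, PDGFRβ-S and DN. By TPM it was 67.1%, 11.4% and 19.7% with reads that other actins could have given taken off, against 67.2%, 15.2% and 23.8% as deposited. It was 40.4%, 5.06% and 9.41% per kilobase of the longest transcript, and 28.5%, 2.84% and 5.43% per kilobase of positions found in no other gene, both of which were chosen after seeing the data. No paired analysis was possible because each population had 1 library, and for the same reason no replicate could be left out. Depth limits Actg2, with 47 reads in PDGFRβ-S and 44 in DN, and shared sequence limits Acta1.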
